A study of Mus musculus with 36 samples.

Results

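In mouse embryonic stem cells (ESCs), 632 sites bound by the nucleosome remodeling and deacetylase (NuRD) complex carried no peak of the zinc finger protein ZFP296 and were not bound by NuRD in neural progenitor cells (NPCs). The sites were chosen by the peak lists alone. A NuRD site was a peak of MBD3 replicate 1 that overlapped a peak of MBD3 replicate 2 by at least 1 bp and also overlapped a CHD4 site, defined as a CHD4 replicate 1 peak overlapping one of replicate 2. Of 2344 MBD3 replicate 1 peaks, 1508 overlapped replicate 2, and 1274 of these overlapped a CHD4 site. Among the 1274 NuRD sites, 707 had no ZFP296 peak, and removing 75 of them with an MBD3 or CHD4 peak in NPCs left the 632 ZFP296-free sites. The same rule gave 1773 sites when MBD3 replicate 1 was left out and the replicate 2 peaks were taken as the sites, and 886 when MBD3 replicate 2 was left out. They are compared below with 529 NuRD sites that carried a ZFP296 peak and no NPC peak (ZFP296-carrying sites), and with 113 NuRD sites that had an MBD3 or CHD4 peak in NPCs (NPC-shared sites), of which 38 carried ZFP296.

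All lists come from ChIP-seq, which sequences the DNA precipitated with a protein, in 9 samples of a series of 36. MBD3 and CHD4 were each profiled in 2 samples of wild-type R1 ESCs and in 1 sample of NPCs that had been derived from R1 ESCs. SIN3A was profiled in wild-type R1 ESCs once without and once with spike-in chromatin, and ZFP296 once, through a GFP antibody. The ESCs were cultured in serum and LIF with 2i (inhibitors of MEK and GSK3), and the NPCs in NPC medium. ZFP296 was mapped as a tagged protein in a line of its own, for which the labels give R1 ESCs carrying a ZFP296-BAC and the methods KH2 ESCs carrying GFP-ZFP296. CHD4 replicate 2 is labelled wild-type, although each of its 29974 peak names holds the text Zfp219 BAC. ZFP296 and the NPC proteins had no replicate, so the absence of a peak rests on 1 list each.

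The NuRD complex joins a chromatin remodeling ATPase, of which CHD4 is the usual one in ESCs, to the histone deacetylases HDAC1 and HDAC2. MBD3 is the subunit that defines one form of the complex, and NuRD is known in ESCs for tuning the expression of pluripotency genes and for allowing cells to leave the pluripotent state. SIN3A is the scaffold of another HDAC1 and HDAC2 complex. ZFP296 is a zinc finger protein of pluripotent cells, and the paper reports that it interacts with both the NuRD and the SIN3A complexes in ESCs.

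The sequences below show what DNA the ZFP296-free sites consist of. For each of 4 groups, the pair of ZFP296-free sites with the highest MBD3 replicate 1 value that overlapped no annotated exon is printed, as the central 200 bp of the peak on the plus strand of mm9, 5′ to 3′, under the name of the nearest protein-coding gene. Capitals mark every match, on either strand, to 1 of the 14 strings listed further on. In the window around a transcription start site (TSS), from 1 kb upstream to 5 kb downstream, the top sites with a SIN3A site lay at Tet1, which encodes a methylcytosine dioxygenase, and downstream of Sox2, which encodes a core pluripotency factor.
Tet1, chr10:62359746-62359945: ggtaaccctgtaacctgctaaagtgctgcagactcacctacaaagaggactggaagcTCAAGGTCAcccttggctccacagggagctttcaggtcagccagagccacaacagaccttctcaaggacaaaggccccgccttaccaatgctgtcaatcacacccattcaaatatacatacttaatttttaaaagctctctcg
Sox2, chr3:34552948-34553147: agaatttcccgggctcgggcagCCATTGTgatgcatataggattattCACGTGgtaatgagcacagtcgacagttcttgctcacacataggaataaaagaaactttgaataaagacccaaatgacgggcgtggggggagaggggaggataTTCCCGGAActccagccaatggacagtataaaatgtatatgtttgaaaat
The Tet1 window holds the ESRRB string at position 58, and the Sox2 window holds the SOX2 string at position 23, the E-box at 48 and the STAT3 string at 151, counted from 1 at the left end. In the TSS window without a SIN3A site, the top pair lay at Epb4.9, which encodes a protein of the membrane skeleton, and at I830134H01Rik.
Epb4.9, chr14:71034723-71034922: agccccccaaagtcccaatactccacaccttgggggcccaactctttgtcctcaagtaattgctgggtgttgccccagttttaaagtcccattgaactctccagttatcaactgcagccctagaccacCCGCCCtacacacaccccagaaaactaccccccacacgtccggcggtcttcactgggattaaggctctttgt
I830134H01Rik, chr19:38124160-38124359: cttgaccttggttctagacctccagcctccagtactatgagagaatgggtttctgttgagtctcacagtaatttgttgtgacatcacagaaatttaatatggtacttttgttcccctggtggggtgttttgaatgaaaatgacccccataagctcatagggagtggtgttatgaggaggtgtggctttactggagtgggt
The Epb4.9 window holds 1 GC box, and the other window holds 0 of the 14 strings. Outside the TSS window (distal sites) with a SIN3A site, the top pair lay in introns of Chd9, a chromodomain helicase gene, and of Prickle2, a gene of planar cell polarity.
Chd9, chr8:93375561-93375760: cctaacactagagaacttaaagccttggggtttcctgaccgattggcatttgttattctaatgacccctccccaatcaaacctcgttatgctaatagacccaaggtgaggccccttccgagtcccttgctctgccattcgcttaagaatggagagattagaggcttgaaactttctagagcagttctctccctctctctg
Prickle2, chr6:92445546-92445745: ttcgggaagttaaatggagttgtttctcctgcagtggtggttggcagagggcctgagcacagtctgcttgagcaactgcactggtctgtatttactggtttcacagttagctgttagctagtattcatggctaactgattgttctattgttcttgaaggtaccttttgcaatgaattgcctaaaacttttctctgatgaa
Neither of these windows holds any of the strings. The top distal pair without a SIN3A site lay upstream of Ubtf, which encodes a transcription factor of RNA polymerase I, and upstream of Rest, which encodes a repressor of neuronal genes.
Ubtf, chr11:102190967-102191166: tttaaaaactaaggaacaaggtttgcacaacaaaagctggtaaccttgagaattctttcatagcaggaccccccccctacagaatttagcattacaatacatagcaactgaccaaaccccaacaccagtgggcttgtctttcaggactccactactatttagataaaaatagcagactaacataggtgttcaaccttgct
Rest, chr5:77691280-77691479: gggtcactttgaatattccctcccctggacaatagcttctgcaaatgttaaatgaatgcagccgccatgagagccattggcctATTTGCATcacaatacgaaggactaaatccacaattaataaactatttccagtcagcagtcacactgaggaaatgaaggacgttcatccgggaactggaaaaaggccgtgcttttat
The Rest window holds the POU5F1 octamer on the minus strand at position 84. The last pair shows the string whose share differed between the classes, the telomere unit TTAGGG, in the top ZFP296-free site that held it, in an intron of Trak1, and in the top ZFP296-carrying site that held it, in an intron of Sh3pxd2a.
Trak1, chr9:121223259-121223458: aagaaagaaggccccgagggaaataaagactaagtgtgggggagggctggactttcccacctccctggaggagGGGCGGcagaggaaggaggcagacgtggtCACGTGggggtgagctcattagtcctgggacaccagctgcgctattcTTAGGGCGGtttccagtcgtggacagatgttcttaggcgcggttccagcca
Sh3pxd2a, chr19:47525277-47525476: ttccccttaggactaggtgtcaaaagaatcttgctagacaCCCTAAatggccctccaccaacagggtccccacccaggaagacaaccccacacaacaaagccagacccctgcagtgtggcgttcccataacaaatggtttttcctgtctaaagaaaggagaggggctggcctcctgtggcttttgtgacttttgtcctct
The Trak1 window holds the unit at position 150, where it overlaps a GC box, and the Sh3pxd2a window holds it on the minus strand at position 41.

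Each peak carries the authors' value on a −log10 scale from the peak caller. These values had a part in choosing the sites and are given as a description, without a test. In MBD3 replicate 1 the ZFP296-free sites ranged from 3.07 to 38.9 with a median of 8.69, and the ZFP296-carrying sites from 3.02 to 44.7 with a median of 9.93. In MBD3 replicate 2 the medians were 11.1 and 12.7. In CHD4 replicate 1 they were 11.9 and 13.2, and in CHD4 replicate 2 they were 15.6 and 16.7. The medians of the ZFP296-free sites lay below those of the ZFP296-carrying sites in all 4 lists, with ranges that overlapped over most of their length. The sites were also narrower, with a median width of 269 bp against 301 bp. Since 4 of the 632 sites met the CHD4 rule through a replicate 1 peak and did not themselves touch a replicate 2 peak, 628 have a value in that list.

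**Figure D1:**
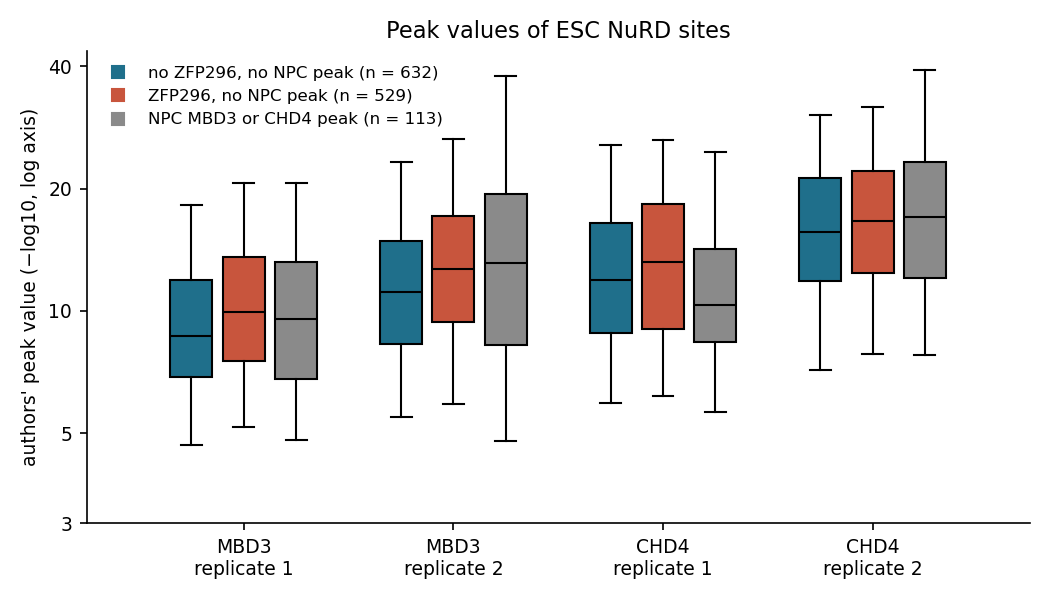
Authors' −log10 value of the peak at each NuRD site (log axis) in 4 ESC lists, for 632 ZFP296-free sites, 529 ZFP296-carrying sites and 113 NPC-shared sites, with boxes between the lower and upper quartiles, a line at the median and whiskers from the 5th to the 95th percentile. The MBD3 replicate 1 median is 8.69 for the ZFP296-free and 9.93 for the ZFP296-carrying sites, and the boxes overlap in every list.

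The 12 ZFP296-free sites with the highest MBD3 replicate 1 values were all distal, 7 intergenic and 5 intronic. The Chd9 intron site (chr8:93375497-93375824) had values of 38.9 and 10.8 in MBD3 replicates 1 and 2, 21.3 and 23.6 in CHD4 replicates 1 and 2, and 14.2 and 5.29 in the SIN3A lists without and with spike-in. The Ubtf site (chr11:102190836-102191298), 10011 bp upstream of the TSS, was high in all 4 NuRD lists, with 29.6 and 34.2 for MBD3 and 30.2 and 29.5 for CHD4. Its SIN3A peak, of 14.9, was only in the list without spike-in. The Rest site (chr5:77691201-77691559), 3.1 kb upstream, had 29.1 and 22.9 for MBD3 and 22.2 and 44.3 for CHD4, with no SIN3A peak in either list and the nearest ZFP296 peak 940.5 kb away. The Sall1 site (chr8:91527337-91527958) lay 40.4 kb downstream of the TSS, beyond the gene, and had 27.4 and 28.8 for MBD3, 51.5 and 41.9 for CHD4, and 16.4 and 16.2 for SIN3A. Sall1 encodes a zinc finger protein that itself binds NuRD. The other 8 lay nearest to Prickle2, the receptor gene Gpr37l1, Sh2d4a, Vstm2l, the neuroserpin gene Serpini1, 4921513D11Rik, the protocadherin gene Pcdh9 and the metalloprotease gene Tll1, with MBD3 replicate 1 values from 23.15 to 30.3. The sites nearest to Sh2d4a, Tll1 and Pcdh9 lay 144.0, 161.1 and 1023.2 kb from the TSS of those genes, beyond the 100 kb limit used for genes below. Those nearest to Sh2d4a, Vstm2l and 4921513D11Rik lay in introns of other genes, namely Csgalnact1, Ctnnbl1 and Fam82a1. A SIN3A site was present at 4 of the 12. The nearest ZFP296 peak lay beyond 100 kb for 8 of them and within 5 kb for 3. Of the 12, 5 lay on chromosomes 6 and 8. These chromosomes held 4.77% of the peaks in the ZFP296 list against 18.1% in MBD3 replicate 1.

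The absence of ZFP296 was set by a missing overlap, so the sites just inside and just outside that limit are given without a test. The ZFP296-free sites closest to a ZFP296 peak lay near Trim13 (chr14:62221752-62222038), 4 bp from one, near Epha2 (chr4:140847395-140847821), 5 bp from one, and near Cldn4 (chr5:135421082-135421262), 13 bp from one. The ZFP296-carrying sites with the shortest overlap lay near I0C0044D17Rik and Zfp936, with 6 bp each, and near Prkca, with 7 bp. Of the 632 sites, 13 lay within 100 bp of a ZFP296 peak, 57 (9.02%) within 1 kb, 149 within 10 kb and 320 (50.6%) within 100 kb. The median gap was 90608.5 bp. Counting a ZFP296 peak within 1 kb as present left 575 sites.

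**Figure D2:**
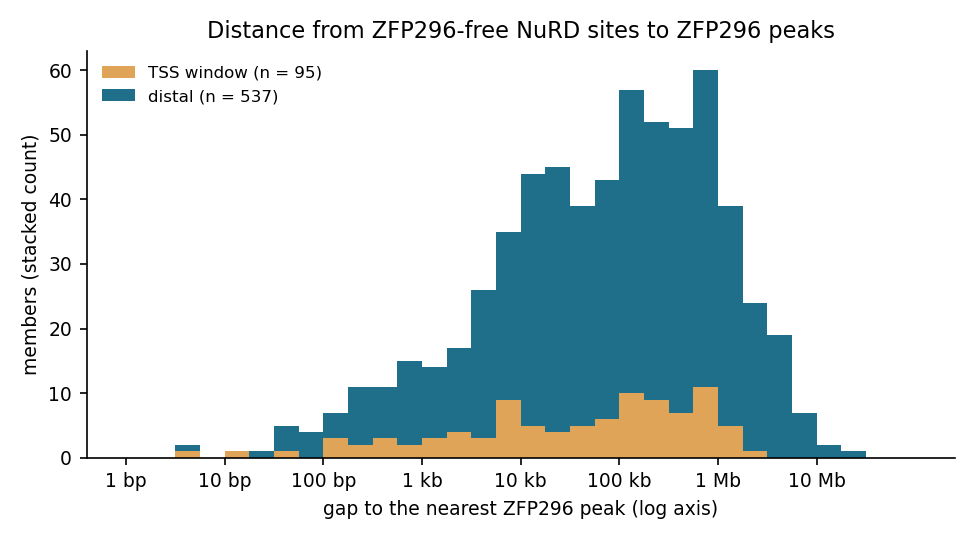
Number of ZFP296-free NuRD sites (stacked counts) by the gap to the nearest ZFP296 peak (log axis), split into 95 sites in a TSS window and 537 distal sites. The median gap is 90608.5 bp, and 57 of the 632 sites lie within 1 kb of a ZFP296 peak.

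Most ZFP296-free sites lay away from promoters. By the midpoint of the peak, 360 (57.0%) were intergenic, 169 (26.7%) intronic and 8 (1.27%) exonic, and 95 (15%, exact 95% interval 12.3 to 18.1) lay in a TSS window. Over all NuRD sites with an annotation, 15.7% lay in a TSS window. Among ZFP296-carrying sites the TSS window held 57 of 528 (10.8%, 8.28 to 13.8), which gave an odds ratio of 1.46 (1.02 to 2.12; adjusted p = 0.0432, two-sided Fisher's exact test). This difference did not pass the threshold under 6 of 11 alternatives, in which the odds ratio ran from 1.05 to 1.66 and the adjusted p from 0.00136 to 1. Without MBD3 replicate 1, that is with replicate 2 peaks as the sites, it was 1.12 (adjusted p = 0.444, Fisher's exact test). NPC-shared sites lay in a TSS window in 48 of 113 cases (42.5%), and the ZFP296-free sites were less often there (odds ratio 0.24, 0.152 to 0.379; adjusted p = 1.68e-09, Fisher's exact test). Intervals and p-values here and below cover the spread over sites, not over cultures.

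The DNA of the ZFP296-free sites had a median GC content of 47.5% in the central 200 bp, with quartiles of 43.5% and 53.0%, against a mean of 41.8% over all windows of that length in the genome. ZFP296-carrying sites had a median of 49.0%, and the difference of -1.5 percentage points passed the threshold (adjusted p = 0.0328, permutation test of medians). It did not without MBD3 replicate 1 (difference -1 point, adjusted p = 0.0516) or without MBD3 replicate 2 (-0.5 points, adjusted p = 0.753) in the same permutation test, and over 11 alternatives the adjusted p ran from 2e-05 to 0.753. The observed-to-expected CpG ratio, a measure of CpG island character, was 0.174 against 0.186 at ZFP296-carrying sites (adjusted p = 0.421, permutation test of medians). NPC-shared sites were richer in GC, with a median of 59.5%, and in CpG, with a ratio of 0.487. In permutation tests, both differences from the ZFP296-free sites had an adjusted p of 1e-05, the smallest that 100000 resamples allow.

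SIN3A was found less often at ZFP296-free sites than at either of the other classes. The paper reports that ZFP296 interacts with the SIN3A complex and that a part of these same ZFP296 peaks overlaps SIN3A. That peak list also split the classes, so the SIN3A difference between them is not independent of the paper's result. A SIN3A site was defined as a peak of the list with spike-in that overlapped a peak of the list without, and 28.4% of all NuRD sites overlapped one. Among ZFP296-free sites 124 of 632 did (19.6%, exact 95% interval 16.6 to 22.9), compared with 192 of 529 ZFP296-carrying sites (36.3%, 32.2 to 40.6). The odds ratio was 0.429 (0.326 to 0.563; adjusted p = 1.54e-09, two-sided Fisher's exact test). It ranged from 0.367 to 0.464 over 13 alternatives, which all passed the threshold, with adjusted p from 1.36e-19 to 0.000937. Against NPC-shared sites, of which 46 of 113 (40.7%) overlapped SIN3A, the odds ratio was 0.356 (0.228 to 0.558; adjusted p = 8.93e-06, Fisher's exact test). At distal sites SIN3A was present at 95 of 537 ZFP296-free (17.7%) and at 162 of 471 ZFP296-carrying sites (34.4%), an odds ratio of 0.41 (0.303 to 0.554; adjusted p = 4.41e-09, Fisher's exact test) that passed under all 14 alternatives. In the TSS window the counts were 29 of 95 (30.5%) and 29 of 57 (50.9%), with an odds ratio of 0.427 (0.204 to 0.884; adjusted p = 0.0316, Fisher's exact test) that did not pass under 8 of 14 alternatives. There, the SIN3A list with spike-in on its own gave an odds ratio of 0.656 (adjusted p = 0.289, Fisher's exact test), within a range of adjusted p from 0.000429 to 0.653.

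In each SIN3A list on its own, the share was also lower at ZFP296-free sites than at either other class. The list without spike-in overlapped 254 ZFP296-free sites (40.2%), 338 ZFP296-carrying sites (63.9%) and 71 NPC-shared sites (62.8%). The list with spike-in overlapped 167 (26.4%), 231 (43.7%) and 57 (50.4%). At 336 of the ZFP296-free sites, neither list had a peak. As a description, the shares are also given within tertiles of the MBD3 replicate 1 value over all NuRD sites, a list that the rule used. SIN3A overlapped 12.8% of the ZFP296-free and 23.8% of the ZFP296-carrying sites in the lowest tertile, 22.5% and 40% in the middle one, and 25.6% and 41.7% in the highest. The share was lower at ZFP296-free sites in every tertile. The tertiles cover MBD3 replicate 1 only, and medians at ZFP296-free sites were also lower in MBD3 replicate 2 and both CHD4 lists. The part of peak value or width in the SIN3A difference was not tested. Within the ZFP296-free class, the 124 sites with SIN3A had a median GC content of 52.2% and a median MBD3 replicate 1 value of 10, against 47.0% and 8.39 for the 508 without, and 23.4% against 13.0% lay in a TSS window.

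**Figure D3:**
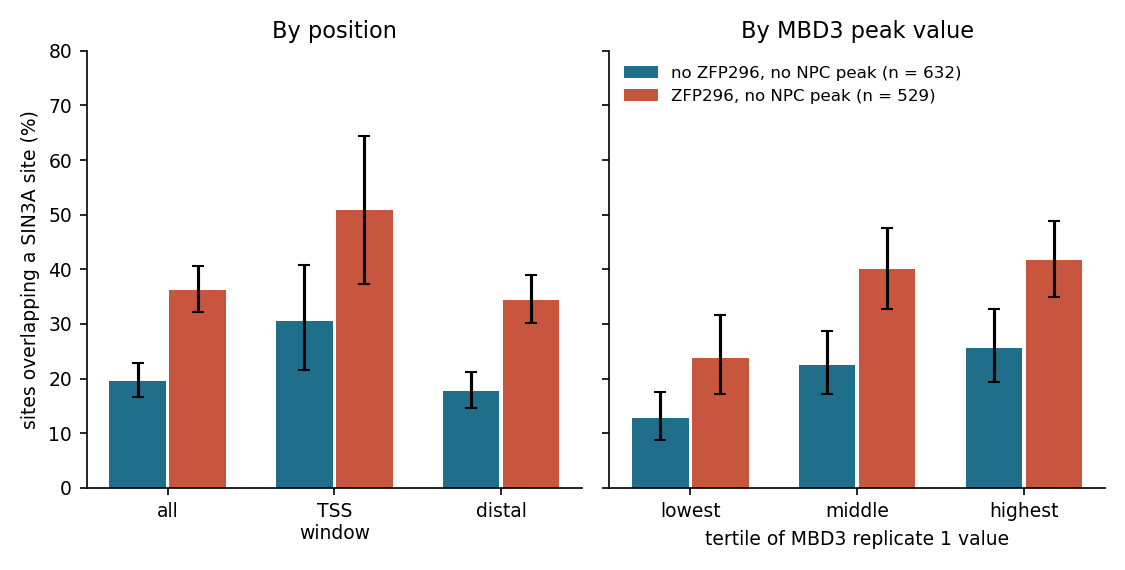
Share of sites overlapping a SIN3A site (%, bars from 0, error bars exact 95% intervals for counting error) for ZFP296-free and ZFP296-carrying sites, by position on the left and by tertile of the MBD3 replicate 1 value on the right. The share is lower at the ZFP296-free sites in each pair of bars, with 19.6% against 36.3% over all sites.

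The 14 strings were searched on either strand of the 200 bp at the middle of each site. Besides the telomere unit, the strings are core recognition sequences of factors with a role in ESCs or at promoters. They were the POU5F1 octamer (ATGCAAAT), the SOX2 string (CCATTGT), the ESRRB string (TCAAGGTCA), the KLF4 string (GGGTGTGG), the GC box of SP and KLF proteins (GGGCGG), ETS (CCGGAAG), NRF1 (GCGCATGCG), YY1 (AAGATGGC), the E-box (CACGTG), AP-1 (TGACTCA), the cyclic AMP response element CRE (TGACGTCA), CTCF (AGGGGGCGC), STAT3 (TTCCNGGAA, where N is any base) and the telomere unit (TTAGGG). A match is a description of the DNA and not a measured binding site.

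The strings of the pluripotency factors occurred in both classes without NPC peaks at shares above those of the genome. The same held for the GC box, ETS and STAT3 strings, so it was not particular to the pluripotency strings. Genome windows were not matched for GC content. The KLF4 string occurred in 65 ZFP296-free sites (10.3%) against 9.09% of ZFP296-carrying sites and 1.19% of 12778424 windows tiling the genome. The SOX2 string occurred in 45 (7.12%) against 7.39% and 3.51%, and the ESRRB string in 36 (5.70%) against 4.73% and 0.421%. None of these differences between the classes passed the threshold (adjusted p = 0.771, 0.98 and 0.771, Fisher's exact test over 14 strings), with 95% intervals of the odds ratio of 0.761 to 1.74, 0.601 to 1.54 and 0.699 to 2.14. The POU5F1 octamer occurred in 29 ZFP296-free sites (4.59%, 3.09 to 6.52) and in 44 ZFP296-carrying sites (8.33%, 6.12 to 11), against 1.73% of genome windows. Its odds ratio of 0.529 (0.314 to 0.88) missed the threshold (p = 0.0105, adjusted p = 0.0737, Fisher's exact test), and it passed when neighbouring sites were thinned to 1 per 50 kb (0.413, adjusted p = 0.0258), within a range of adjusted p from 0.0258 to 0.849. At least 1 of these 4 strings was present in 169 ZFP296-free sites (26.7%) and 142 ZFP296-carrying sites (26.9%), and at least 2 were present in 6 and 14.

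The telomere unit was the string that differed. It occurred in 39 ZFP296-free sites (6.17%, 4.42 to 8.34), 64 ZFP296-carrying sites (12.1%, 9.46 to 15.2), 6.19% of NPC-shared sites and 7.57% of genome windows, with an odds ratio between ZFP296-free and ZFP296-carrying sites of 0.477 (0.306 to 0.736; adjusted p = 0.00797, Fisher's exact test). The share at ZFP296-free sites was thus near that of the genome. The paper reports the telomere repeat as the most enriched motif under these same ZFP296 peaks, with SOX2 and POU5F1 motifs also enriched. That peak list also split the classes, so the higher share at ZFP296-carrying sites is not independent of the paper's motif result. Nearly all windows held a single unit, with 2 units in 2 ZFP296-free and 4 ZFP296-carrying sites and never 3. The call was lost in 4 of 11 alternatives, among them the sites without MBD3 replicate 1 (odds ratio 0.809, adjusted p = 0.415, Fisher's exact test) and the sites outside chromosomes 6 and 8 (0.565, adjusted p = 0.176), with adjusted p from 0.00263 to 0.415 over the alternatives.

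The remaining strings are given against NPC-shared sites as shares without a test. The GC box occurred in 74 ZFP296-free (11.7%), 52 ZFP296-carrying (9.85%) and 38 NPC-shared sites (33.6%), against 1.96% of genome windows. The AP-1 string occurred in 13 ZFP296-free (2.06%), 18 ZFP296-carrying (3.41%) and 12 NPC-shared sites (10.6%), against 3.11%. The E-box occurred in 3.01% of ZFP296-free and 2.65% of NPC-shared sites, against 1.95% of genome windows. The STAT3 string occurred in 1.74% and 1.77%, against 0.503%, and the ETS string in 2.53% and 4.42%, against 0.567%. The CTCF string occurred in 0.475% and 2.65%, against 0.0387%, and the CRE string in 0.158% and 0%, against 0.107%. The NRF1 string was in 0 of the 632 windows, an exact 95% interval of up to 0.582%. The YY1 string was in 1 ZFP296-free site, whereas 1.80% of genome windows held it. In total, 336 ZFP296-free sites (53.2%) held 0 of the 14 strings.

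Within the ZFP296-free class, SIN3A overlap was counted at the sites that held each of 6 strings. Of 74 sites with a GC box, 34 overlapped a SIN3A site (45.9%, 34.3 to 57.9), compared with 16.1% of sites without that string. Of 29 sites with the octamer, 1 overlapped a SIN3A site (3.45%, 0.0873 to 17.8), and of 45 with the SOX2 string, 4 did (8.89%, 2.48 to 21.2). The telomere unit gave 4 of 39 (10.3%), the ESRRB string 6 of 36 (16.7%) and the KLF4 string 13 of 65 (20%), against 20.2%, 19.8% and 19.6% of the sites without each. These shares were counted after other results were seen and were not tested.

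**Figure D4:**
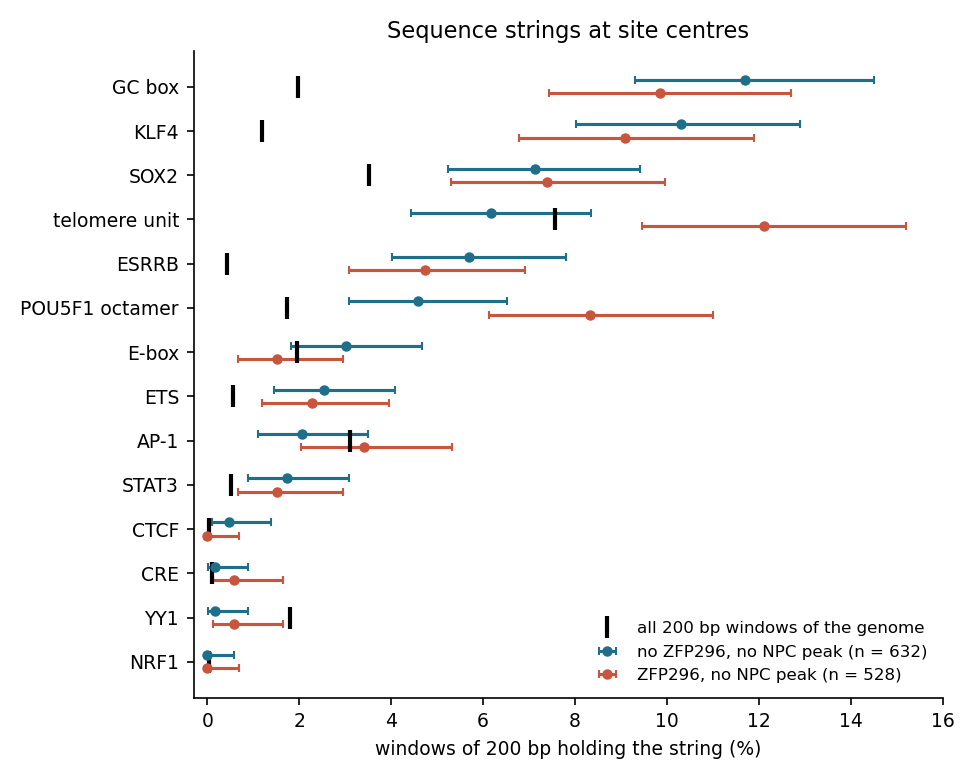
Share of 200 bp windows that hold each of 14 strings (%) at ZFP296-free sites and ZFP296-carrying sites (points with exact 95% intervals), and in all windows of the genome (black ticks). The KLF4, ESRRB and GC box strings lie above the genome ticks in both classes, and for the telomere unit the ZFP296-free sites (6.17%) lie near the genome (7.57%) and below the ZFP296-carrying sites (12.1%).

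The nearest protein-coding gene within 100 kb was recorded for 539 of the 632 sites, and these were 463 of 22225 annotated genes, or 2.08%. The ZFP296-carrying sites had 403 such genes, or 1.81%, and 70 genes had sites of both kinds, which is 15.1% of the former and 17.4% of the latter. Of the 463 genes, 402 had a single ZFP296-free site, 52 had 2 and 9 had 3 or more. A nearest gene is a position and not a measured target.

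Pluripotency regulators were frequent among these genes in both classes. The list of core and naive pluripotency regulators was broad, and Otx2 on it is counted in both classes. Of its 29 annotated genes, 13 (44.8%) were the nearest gene of a ZFP296-free site and 12 (41.4%) of a ZFP296-carrying site. Both classes had 4 of them. Over all genes these shares were 2.08% and 1.81%. ZFP296-free sites alone lay near Sox2, Nanog, Klf5, Sall4, Zfp42, Nr5a2, Dppa3, Zfp281 and Rest, and ZFP296-carrying sites alone lay near genes that included Pou5f1, Esrrb, Klf2, Klf4, Dppa5a, Mybl2 and Zfp296 itself. Tbx3, Sall1, Prdm14 and Otx2 had both. Nanog and Dppa3 lie on chromosome 6 and Zfp42 on chromosome 8. These chromosomes held 4.77% of ZFP296 peaks against 18.1% of MBD3 replicate 1 peaks. Whether a single gene falls to one class or the other, and the part of this imbalance in it, was not tested. Of the 21 ZFP296-free sites near the 13 genes, 4 lay in a TSS window, 17 were intergenic and 6 overlapped a SIN3A site.

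For the core factors, the Sox2 site (chr3:34552758-34553337), 4.0 kb downstream of the TSS, had values of 18.1 and 13.9 for MBD3, 16.8 and 22.2 for CHD4, and 19.98 and 6.23 for SIN3A without and with spike-in. The second Sox2 site, 95.3 kb downstream (chr3:34644229-34644482), had 10.9 and 15.9 for MBD3 and 18.6 and 27.9 for CHD4, with a SIN3A peak only in the list with spike-in, of 12.3. They lay 13972 bp and 10041 bp from a ZFP296 peak. The Nanog site (chr6:122652569-122652895), 4.8 kb upstream of the gene for this homeodomain factor, had 8.31 and 7.96 for MBD3, 16.1 and 11.6 for CHD4, and 15.3 and 25.9 for SIN3A. Sall4, which encodes a zinc finger protein that binds NuRD, had a pair of sites 646 and 396 bp from its TSS (chr2:168589996-168590203 and chr2:168590254-168590446) that overlapped a single peak of MBD3 replicate 2 (12.5) and of each CHD4 list (14.2 and 8.93), so they are not independent in those lists. Both Sall4 sites had a SIN3A value of 15.4 without spike-in and no SIN3A peak in the list with spike-in.

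Among genes of the naive state, the Zfp42 site (chr8:44405861-44406436), 13.8 kb upstream of the gene for the marker REX1, had 20.9 and 16.3 for MBD3, 34.9 and 22.1 for CHD4, and 23.2 and 24.5 for SIN3A. Klf5, a Krüppel-like factor gene of the naive network, had 4 ZFP296-free sites from 41.1 to 56.9 kb downstream of its TSS and 0 ZFP296-carrying sites. Their MBD3 replicate 1 values were 17.99, 16.6, 11.7 and 5.36, and none overlapped a SIN3A site. The sites at 41.1 and 41.6 kb shared a CHD4 peak in each replicate (31.2 and 22.5). Dppa3, which encodes the oocyte and ESC protein Stella, had a site 1.7 kb upstream (chr6:122574592-122574783) with 13.8 and 10.3 for MBD3 and 19.8 and 16.5 for CHD4. Nr5a2, a nuclear receptor gene, had one at its TSS (chr1:138850246-138850518) with 6.90 and 14.03 for MBD3 and 8.39 and 17.2 for CHD4. The Dppa3 and Nr5a2 sites had a SIN3A peak only in the list without spike-in, of 14.4 and 10.7.

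FGF and ERK signalling, which drives ESCs out of the naive state and which 2i blocks at MEK, was represented by 5 of 21 genes (23.8%) near ZFP296-free sites and by 1 of 21 (Spry2, an inhibitor of the pathway) near ZFP296-carrying sites. Over all genes the shares were 2.08% and 1.81%, and the difference between the classes was not tested. The 5 genes were the ligand Fgf4, the receptor Fgfr1, the inhibitors Spred2 and Dusp4, and the ETS factor Etv5. Fgfr1 and Dusp4 lie on chromosome 8, which held 2.13% of ZFP296 peaks against 9.3% of MBD3 replicate 1 peaks. Fgf4 had a site 3.3 kb upstream (chr7:152043793-152044242) with 8.31 and 10.8 for MBD3, 13.2 and 18.8 for CHD4, and 14.2 and 5.86 for SIN3A, and another 3.3 kb downstream of the TSS (chr7:152050472-152050688) with 6.33 and 7.24 for MBD3 and 7.64 and 8.52 for CHD4. The receptor gene Fgfr1 had one at its TSS (chr8:26623879-26624145) with 17.2 and 8.30 for MBD3, 12.1 and 15.8 for CHD4 and 25.9 for SIN3A without spike-in. Etv5 had 5 ZFP296-free sites and 0 ZFP296-carrying sites. They lay 0.2 to 33.8 kb downstream of the TSS, had MBD3 replicate 1 values of 7.54 to 8.63, and lay 262.2 to 295.8 kb from the nearest ZFP296 peak.

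In the other signalling lists the counts were small, against shares of 2.08% and 1.81% over all genes, and the classes were not tested. LIF and STAT3 genes had 2 of 10 near ZFP296-free sites, the receptor gene Lifr and the kinase gene Pim1, and 4 of 10 near ZFP296-carrying sites (Il6st, Socs3, Pim1 and Pim3). Wnt genes had 2 of 24, the receptor genes Fzd7 and Fzd10, and 0 of 24. Nodal, TGF-beta and BMP genes had 3 of 27 (the co-receptor gene Tdgf1, Smad7 and Id4) and 5 of 27. The Fzd10 site at its TSS (chr5:129105992-129106602) had 13.5 and 16.5 for MBD3, 10.9 and 19.1 for CHD4, and 25.3 and 11.1 for SIN3A. The Lifr site 12.5 kb upstream (chr15:7066803-7067218) had 13.7 and 10.9 for MBD3 and 7.67 and 17.2 for CHD4, with a ZFP296 peak 1.4 kb away.

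Among chromatin regulators, 3 of 14 Polycomb genes (Eed, Jarid2 and Mtf2) lay near ZFP296-free sites and 2 of 14 near ZFP296-carrying sites. The shares over all genes were 2.08% and 1.81%, and the classes were not tested. Genes of DNA methylation and demethylation had 2 of 9 in each class, Dnmt3l and Tet1 near ZFP296-free sites and Tet1 and Tet2 near ZFP296-carrying sites. The Tet1 site 2.0 kb downstream of the TSS (chr10:62359625-62360067) had 19.8 and 20.4 for MBD3, 23.6 and 16.3 for CHD4, and 7.49 and 5.29 for SIN3A, and lay 1.1 kb from a ZFP296 peak. The Mtf2 site (chr5:108506036-108506618), 4.4 kb into the gene for a Polycomb accessory protein, had 11.8 and 10.4 for MBD3 and 31.4 and 23.6 for CHD4. Its SIN3A peak, of 15.4, was only in the list without spike-in. Genes of the complexes themselves had 1 of 15 NuRD subunits (Hdac2, site 38.4 kb upstream) and 1 of 15 SIN3 subunits (Fam60a, 2 sites), or 6.67% each against 2.08% of all genes. Myc family and cell cycle genes had 3 of 23 (Mycn, Max and Cdk6) against 3 of 23. Neural progenitor regulators had 0 of 22, and cytosolic ribosomal protein genes 0 of 47, in both classes, against 2.08% and 1.81% of all genes. With shares that low, a count of 0 in lists of this size cannot be read as a depletion.

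Beyond the lists, 9 genes were nearest to 3 or more ZFP296-free sites. Etv5 and the kinase gene Sik1 had 5 each, Klf5 and the E-cadherin gene Cdh1 had 4 each, and Grhl3, Hpgd, Kif13b, Rnf220 and Spaca7 had 3 each. Cdh1, Grhl3 and Rnf220 also had 1 ZFP296-carrying site each. Cdh1, Hpgd and Spaca7 lie on chromosome 8, which held 2.13% of ZFP296 peaks. The 4 Cdh1 sites lay 3375 to 15026 bp downstream of the TSS, with MBD3 replicate 1 values of 7.99, 11.3, 4.68 and 7.68 and with 0 SIN3A sites. The 3 Hpgd sites, 42.0 to 75.5 kb upstream of a gene of prostaglandin breakdown, had values of 14.96 to 24.1 in CHD4 replicate 1 and 23.7 to 33.9 in replicate 2, and lay 8883.2 to 8916.4 kb from the nearest ZFP296 peak. In MBD3 replicate 2, 10 of the 632 sites overlapped a peak shared with another of them, as did 14 in each CHD4 list, and 56 sites lay within 1 kb of another NuRD site.

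The ZFP296-free sites were unevenly spread over chromosomes. Chromosomes 6 and 8 held 70 and 73 of them, together 22.6%, against 6.62% of ZFP296-carrying sites and 15.9% of NPC-shared sites. Among all peaks of a list, the same chromosomes held 18.1% in MBD3 replicate 1, 8.03% in MBD3 replicate 2, 16.7% and 13.3% in the CHD4 lists, 12.6% and 13.5% in the SIN3A lists, 14.6% and 12.7% in the NPC lists of MBD3 and CHD4, and 4.77% in the ZFP296 list. The difference in these shares moved with the list, including between the MBD3 replicates and in the ZFP296 line, and its part in the class sizes was not tested. On chromosomes 6 and 8, SIN3A overlapped 44 of 143 ZFP296-free sites (30.8%) and 20 of 35 ZFP296-carrying sites (57.1%), and on the others 80 of 489 (16.4%) and 171 of 493 annotated sites (34.7%). Without chromosomes 6 and 8 the odds ratio for SIN3A was 0.367 (0.267 to 0.501; adjusted p = 1.02e-10, Fisher's exact test) and that for the TSS window was 1.66 (1.13 to 2.45; adjusted p = 0.0149), while that for SIN3A within the TSS window was 0.494 (adjusted p = 0.0853).

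**Figure D5:**
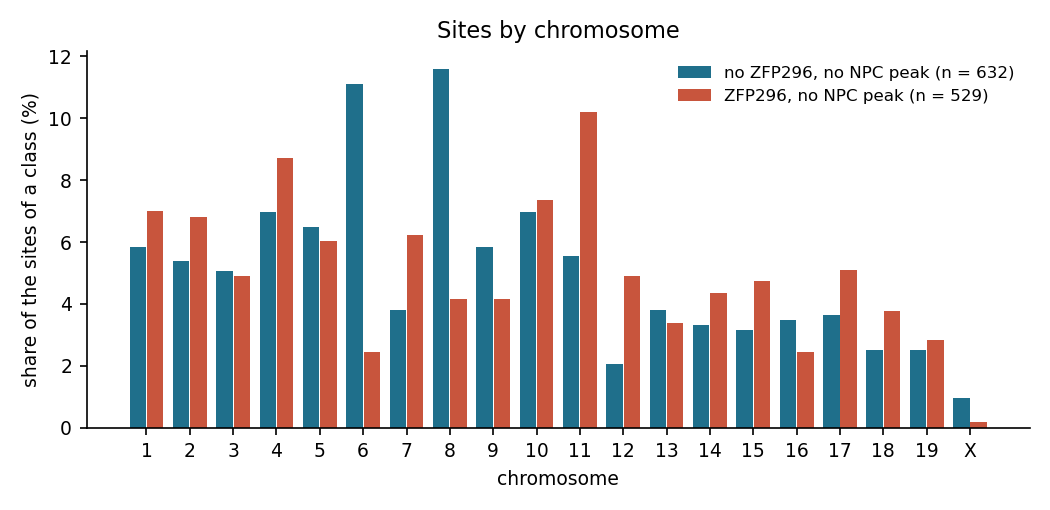
Share of ZFP296-free and of ZFP296-carrying NuRD sites on each chromosome (%, bars from 0). Chromosomes 6 and 8 hold 11.1% and 11.6% of the ZFP296-free sites against 2.46% and 4.16% of the ZFP296-carrying sites.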

How the data were processed

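Peak lists of 9 ChIP-seq samples were used, and 27 samples of the series were not analysed here. The authors mapped reads to mm9 with BWA, kept unique, quality-filtered reads without duplicates, and called peaks per sample with MACS (2.0 in the submitters' processing notes) against input. Each deposited peak carries the authors' −log10 value, and its origin from p-values or from q-values is not given in the sources used here. Peak names give a threshold of 0.001 for 8 lists and 0.0001 for SIN3A without spike-in, and the names of 7 lists mention an equal read number. With no read counts per peak, depth at a site is unknown, and peak values were not compared between lists.

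Classes were compared by two-sided Fisher's exact tests (conditional odds ratio, exact 95% interval) and permutation tests of medians (100000 resamples), with Benjamini-Hochberg adjustment over 6 tests against ZFP296-carrying sites, 4 against NPC-shared sites and 14 strings, at a threshold of 0.05. Shares carry exact (Clopper-Pearson) intervals for counting error only. Genes were the protein-coding genes of GENCODE vM1. Sites named were the 12 with the highest MBD3 replicate 1 value, those within 100 kb of a gene of 12 lists, the 3 nearest each side of the ZFP296 limit, genes with 3 or more sites, and the printed sequences. The members, lists and strings were chosen with earlier results of these data known. Functions were tested on simulated data. Python 3.11.15, scipy 1.17.1, numpy 2.4.6, pyfaidx 0.9.0.4 and samtools 1.23.1 were used. A comparison of repeat content was not run, since the reference sequence marks no repeats.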

Additional observations from a re-analysis of the deposited data

How the results depend on the processing

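Under 15 alternatives, 2 of them chosen after seeing the data, 118 of 142 recomputed values with a test kept their direction and side of the threshold, and 12 of 19 recomputed counts stayed within 1.5 times the reported one. Taking MBD3 replicate 2 peaks as the sites gave 1773 members, and leaving out any 1 replicate list gave 644 to 1773. The TSS odds ratio no longer passed with 50% overlap (1.4), authors' values of at least 5 (1.39), ZFP296 within 1 kb (1.22), the middle tertile of MBD3 values (1.05) or a TSS window of 1 kb (1.26), and was 1.12 to 1.65 with 1 replicate list left out. The SIN3A odds ratio within the TSS window no longer passed with 50% overlap (0.552), values of at least 5 (0.458), ZFP296 within 1 kb (0.494), 1 site per 50 kb (0.44), the middle tertile (0.59), the spike-in list alone (0.656), the 1 kb window (0.362) or without chromosomes 6 and 8 (0.494). The GC difference was -1.5 to -0.5 points with 1 replicate list left out. The CpG difference from ZFP296-carrying sites, never past the threshold, changed sign with 500 bp windows (0.00031) and ranged from -0.0151 to 0.00627 with 1 replicate list left out. The number of strings that differed was 1, and it was 2 at 1 site per 50 kb, 0 in the middle tertile, with 500 bp windows or without chromosomes 6 and 8, and 0 to 3 with 1 replicate list left out. The causes were not tested.

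No paired analysis was possible because the results compare sites of peak lists and come from no test over samples. The planned comparison of repeat content was not run. Depth limits the calls of absence: ZFP296 and the NPC proteins had 1 list each, and a site below a list's threshold counts as unbound.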

Other observations

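The ZFP296-free sites lay a median of 22047 bp from the nearest TSS, against 17222 bp for the ZFP296-carrying sites, and a median of 209435 bp from the nearest other NuRD site, against 85695.5 bp. Of the 632 sites, 122 had another NuRD site within 5 kb and 222 had none within 500 kb. These distances were not tested.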
